A study of Rattus norvegicus with 2 samples.

Results

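The miR-376 family was read on 1-colour arrays of small RNA from the nucleus accumbens (NAc), the ventral striatal region that takes part in the reward response to alcohol. The probes were chosen by name, as all whose name starts with miR-376 and does not end in a star, which marks the minor strand of a hairpin in older naming. There were 4 of them among 349 rat miRNA probes: rno-miR-376a, rno-miR-376b-3p, rno-miR-376b-5p and rno-miR-376c (the prefix, for rat, is left out below). The study used 18 male Sprague-Dawley rats of 150 to 180 g, injected intraperitoneally bid for 7 days with 500 µl of saline (vehicle) or with alcohol at 1 g/kg. There were 9 rats in each group, and the data hold 1 array for each. Whether RNA of several rats was combined for an array is not given in the sources used here. Each array carried 9 repeat spots of every miR-376 probe. These spots share 1 RNA sample, so the SD over them is a technical error. No comparison of the groups could be checked on a further array, and treatment and array cannot be told apart.

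miRNAs are cut from a hairpin precursor whose arms, called 5p and 3p, can each give a mature strand. Usually one strand is kept in the silencing complex and the other is degraded. The bases near the 5′ end, the seed, do most of the target recognition. The genes of the miR-376 family lie in the imprinted Dlk1-Dio3 domain, where a large group of miRNAs is expressed from the maternal chromosome, and many of them are enriched in neurons. Transcripts of miR-376 are also known in the brain for editing of adenosine to inosine within the seed.

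All 4 listed targets, and that of miR-376a*, were identical to a RefSeq mature miRNA on rat chromosome 6 (GRCr8, plus strand). miR-376a, miR-376b-3p and miR-376c are the 3p strands of neighbouring hairpins, in the order miR-376c, miR-376b, miR-376a. In that annotation the span of the lncRNA gene LOC102555254 held the Mir376c and Mir376b genes, and the spans of the lncRNA gene LOC120103623 and of Mir3595 held Mir376a. The sequences are shown because the probes have to tell near relatives apart. Capitals mark the seed (bases 2 to 8), and miR-376a* and miR-376c-5p are added as the 5p strands of the other hairpins.
miR-376a (chr6:134559421-134559441): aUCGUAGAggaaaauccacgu
miR-376b-3p (chr6:134558913-134558933): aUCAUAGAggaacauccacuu
miR-376c (chr6:134558256-134558276): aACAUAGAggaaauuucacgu
miR-376b-5p (chr6:134558876-134558897): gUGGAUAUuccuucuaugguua
miR-376a* (chr6:134559383-134559403): gGUAGAUUcuccuucuaugag
miR-376c-5p (chr6:134558219-134558239): gUGGAUAUuccuucuauguuu

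The 3p strands had 21 bases each but 3 different seeds, and no other target on the array carried any of these seeds. Positions are counted from 1 at the 5′ end. miR-376a differed from miR-376b-3p by 3 substitutions, G4A, A13C and G20U, of which the first lies in the seed. miR-376a differed from miR-376c by U2A, G4A, A14U and C16U. miR-376b-3p differed from miR-376c by U2A, C13A, A14U, C16U and U20G. On the 5p side, miR-376b-5p and miR-376c-5p shared their first 18 bases and differed by G19U among the 21 bases they could be compared over. The array had no probe for miR-376c-5p, and how far the miR-376b-5p probe also binds that strand was not tested. The GC content was 38.1% for miR-376b-3p and 36.4% for miR-376b-5p, below the median of 47.6% over the 349 targets for both arms of the hairpin.

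Some facts of the arrays bear on every value. The difference in brightness between the arrays varied with the kind of spot. Over the 150 miRNAs detected on both, raw density had a median of 1951 on the alcohol array against 952 for vehicle. The 5S rRNA spots went the other way, with medians of 14980 (alcohol) and 16907 (vehicle). So did the empty spots, at 141 and 202. The signals were therefore compared after cyclic loess, a normalization that removes a brightness difference that varies with the signal. Detection was judged against 88 spots of mismatched control probes: 5 or more of the 9 spots of a probe had to lie over the control median plus 3 median absolute deviations. The resulting thresholds were densities of 278 (vehicle) and 179 (alcohol). The neuronal markers miR-124, miR-9 and miR-128 were detected on 9 of 9 spots of both arrays, and so was miR-219-2-3p, 1 of 4 probes for oligodendrocyte markers. Of the others miR-338 had 0 spots over the threshold with vehicle and 9 with alcohol, miR-219-5p had 1 and 9, and miR-219-1-3p had 0 on both. The blood markers miR-451 and miR-144 and all 5 epithelial markers (miR-200a, miR-200b, miR-200c, miR-141 and miR-429) had 0 spots over the threshold, and the blood marker miR-223 had 0 with vehicle and 2 with alcohol. Among muscle markers miR-1 and miR-206 had 0, while miR-133a had 5 with vehicle and 0 with alcohol and miR-133b had 2 and 0. The liver marker miR-122 was over the threshold on 9 of 9 spots of both arrays and lower with alcohol, at a log2 ratio of -2.16, and the part of this in the miR-376 values was not tested.

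The miR-376b hairpin was bright only relative to the rest of the family. On each array its arms lay below the median raw density given above for the miRNAs detected on both. Both arms of miR-376b were detected on 9 of 9 spots of both arrays, miR-376a on 0 spots of the vehicle array and 9 of the alcohol array, and miR-376c on 0 and 1 spots. Over all probes, 43.0% were detected on both arrays. Brightness depends on each probe as well as on the RNA, so the order of the probes on an array is one of signal and not of numbers of molecules. By normalized signal the order on both arrays was miR-376b-3p, miR-376b-5p, miR-376a and miR-376c, with ranks of 88, 103, 183 and 222 among 349 probes on the vehicle array and 77, 118, 175 and 203 on the alcohol array.

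**Figure D1:**
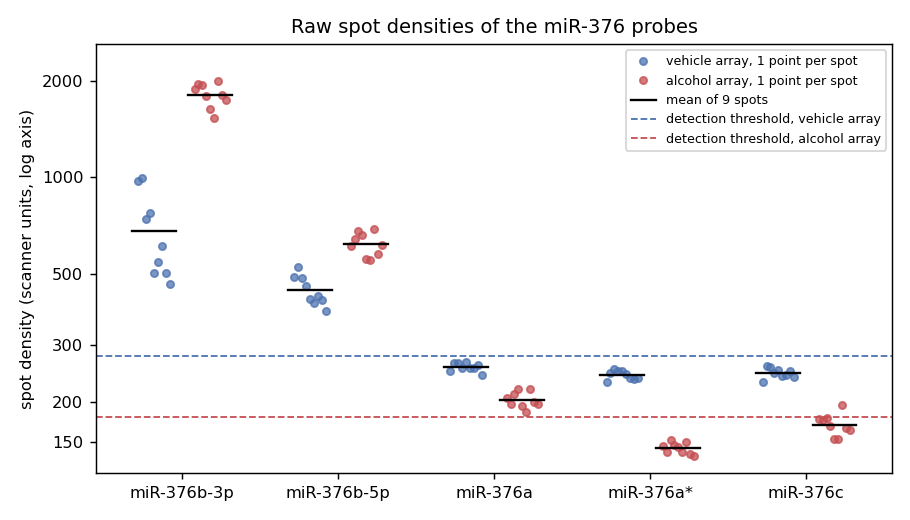
Raw density of each of the 9 repeat spots (log axis, scanner units) for the 4 miR-376 probes and miR-376a* on the vehicle and the alcohol array, with the mean of the spots as a bar and the detection threshold of each array as a dashed line. The spots of both miR-376b arms lie above the threshold on both arrays, and those of miR-376a only on the alcohol array.

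miR-376b-3p, the brighter arm, was higher on the alcohol array. Its raw density on the vehicle array ran from 464 to 993 over the 9 spots, with a median of 610. On the alcohol array it ran from 1527 to 1998, with a median of 1799. The spots of the arrays did not overlap, and the alcohol spots were all brighter. How many other probes separated in this way was not counted. Over the 150 miRNAs detected on both arrays the median log2 ratio without normalization was 0.57, so raw separation does not single out this probe. Cyclic loess gave signals of 729 (vehicle) and 1241 (alcohol). The log2 ratio, alcohol over vehicle, was 0.77 ± 0.45 (SD over 9 spots), which is 1.70-fold. All 9 spots had a ratio above 0. The ratio was above 0 in the 13 other ways of processing that were run and past 1.3-fold in all 13, with a lowest value of 0.51 and a highest of 2.03.

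miR-376b-5p, the other arm of the hairpin, did not follow it. Its raw density ran from 382.5 to 526 on the vehicle array, with a median of 427, and from 553 to 688 on the alcohol array, with a median of 614. Here too the raw spots did not overlap and the alcohol spots were all brighter, with the same limit as for miR-376b-3p. The rise was smaller than the one that cyclic loess fitted at this brightness, however, and the normalized signals were 463 (vehicle) and 376.2 (alcohol). The log2 ratio was -0.30 ± 0.19 (SD over 9 spots), below 0 on 9 of 9 spots and short of 1.3-fold. Its direction was set by the scaling. The ratio was 0.80 without normalization between the arrays and 1.10 when they were scaled to the 5S rRNA probes. It was below 0 in the other 11 alternatives. It passed 1.3-fold upward in 2 alternatives and downward in 3. The paper lists miR-376b-5p among the miRNAs lower with alcohol and miR-376b-3p among those higher.

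To be called, a probe had to be detected on either array, reach 400 in normalized signal on one of them and differ by 1.3-fold or more. Of the 4 miR-376 probes, 2 met the detection and signal filter, the arms of miR-376b. miR-376b-3p passed 400 on the alcohol and on the vehicle array, and miR-376b-5p on the vehicle array only. Of these, 1 was called higher and 0 lower. Over all 349 probes 9.46% were called higher and 7.45% lower (16.9% in all), and over the 125 probes that met the filter 26.4% were called higher and 20.8% lower (47.2% in all). Among these 125, 15 had a higher ratio than miR-376b-3p, and 29 had a lower ratio than miR-376b-5p. A call of 1 among 2 probes does not stand apart from such a background.

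The change in the balance of the arms depended less on the scaling than the change of either arm. A constant scaling of an array moves both arms alike, so the difference of their log2 ratios does not change with it. The probes of the arms also lay in neighbouring rows of the same column, which allows 9 local comparisons. On the vehicle array the raw density of miR-376b-3p was 1.21 to 1.997 times that of miR-376b-5p, with a median of 1.43 and an SD of 0.298 over the 9 spot pairs. On the alcohol array it was 2.71 to 3.11 times that of miR-376b-5p, with a median of 2.90 and an SD of 0.146. The ranges did not overlap, and how many other hairpins separated in this way was not counted. These are ratios of brightness between probes, and it is their change between the arrays that is compared. They also include a background that was higher on the vehicle array, where the 125 miRNA probes with 0 detected spots on both arrays (the dark probes) had a median density of 244, against 147 for alcohol. Net of this median, the mean density of miR-376b-5p was 46.2% of that of miR-376b-3p with vehicle and 28.5% with alcohol. By spot pair the net ratio of miR-376b-3p to miR-376b-5p ran from 1.502 to 2.99 with vehicle and from 3.19 to 3.83 with alcohol. These ranges did not overlap either, with the same limit. The change of the ratio of the mean net densities was 1.62-fold, or 0.70 on the log2 scale, in this alternative that was added after the values were seen. After cyclic loess, the log2 ratio of miR-376b-3p exceeded that of miR-376b-5p by 1.07 ± 0.32 (SD over 9 spot pairs), which is 2.09-fold, and the difference was above 0 in 9 of 9 pairs. It was 0.93 without normalization and under each constant scaling. Over the 13 alternatives other than these net densities, its lowest value was 0.75, with cyclic loess on the probes detected on both arrays, and its highest was 1.62, in the signal that the authors processed. In that processed signal miR-376b-3p went from 557 to 1072 and miR-376b-5p from 435 to 272.

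**Figure D2:**
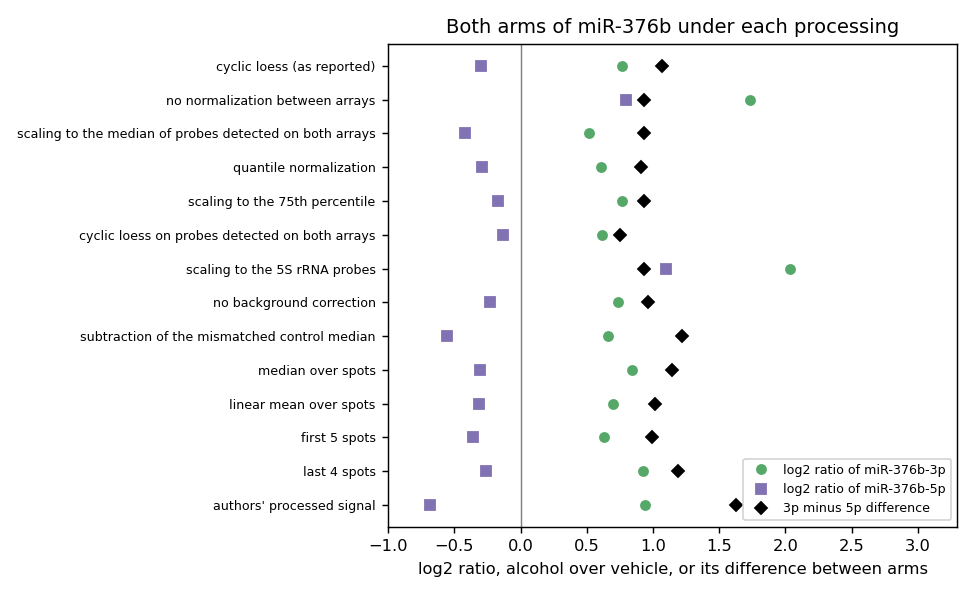
The log2 ratio of alcohol over vehicle for miR-376b-3p (circles) and miR-376b-5p (squares) and the 3p minus 5p difference (diamonds), for the processing reported and the 13 alternatives. The circles run from 0.51 to 2.03 and the diamonds from 0.75 to 1.62, all above 0, whereas the squares lie above 0 only without normalization and with the 5S rRNA scaling.

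The size of the difference varied over the surface of the vehicle array. The 9 spots lie in 3 blocks of 3, one block below the other. In the vehicle array the mean raw density of miR-376b-3p was 904 in the first block, 607 in the second and 525 in the third. In the alcohol array it was 1926, 1649 and 1844. The density in the third block was thus 0.581 of that in the first with vehicle and 0.957 with alcohol. Over the 150 miRNAs detected on both arrays the median of this fraction was 0.875 and 0.999. For miR-376b-5p it was 0.815 and 0.974. The coefficient of variation of miR-376b-3p over the vehicle spots, 30.0%, was exceeded by 9 of the 150 miRNAs, whose median was 9.10%. The log2 ratio of miR-376b-3p was 0.31, 0.79 and 1.20 in the 3 blocks, and that of miR-376b-5p was -0.48, -0.31 and -0.11. The first block, on its own, did not reach 1.3-fold for miR-376b-3p. The difference between the arms was 0.79, 1.10 and 1.32, above 0 in each block. The part of the block trend in the change of miR-376b-3p was not tested beyond these values.

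**Figure D3:**
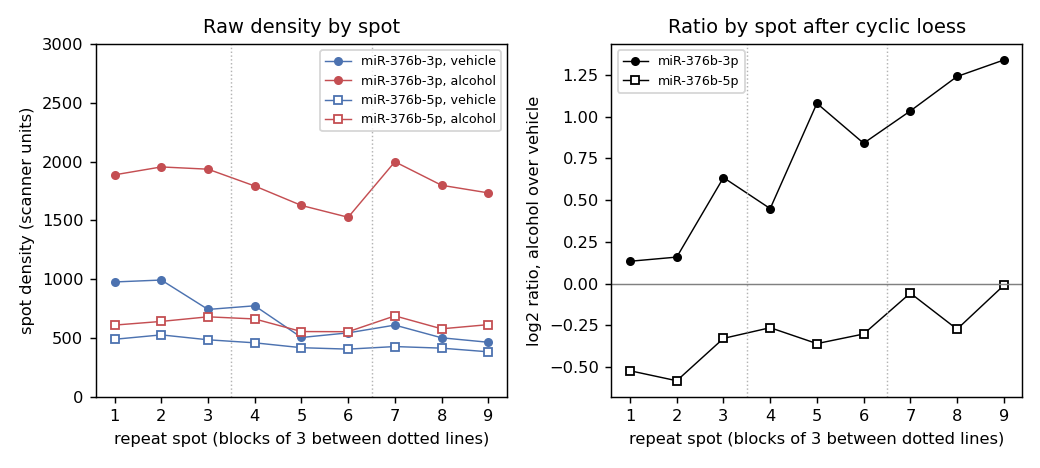
Left, raw density (scanner units) of each repeat spot of miR-376b-3p (filled) and miR-376b-5p (open) on the vehicle and the alcohol array. Right, the log2 ratio of alcohol over vehicle for each spot after cyclic loess; on the vehicle array miR-376b-3p is brightest in the first block, and its ratio runs from 0.13 to 1.34.

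The other hairpins on the array give a scale for this difference, in a comparison chosen after the values were seen. In 13 hairpins both arms were detected on both arrays and could be assigned to 3p and 5p. The difference of log2 ratios, 3p minus 5p, had a median of 0.24, a lowest value of -0.67 and a highest of 1.66. miR-376b had the third largest difference, after miR-29c at 1.66 ± 0.47 and miR-342 at 1.21 ± 0.54 (SD over 9 spots). Without normalization between the arrays miR-376b ranked 4 of 13, at 0.93. This was close to let-7d and miR-342, at 0.95 each, and to miR-138, at 0.88. The difference was above 0 in 9 of the 13 hairpins. In miR-9 and let-7d the SD over spots, 2.53 and 2.55, was larger than the difference.

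**Figure D4:**
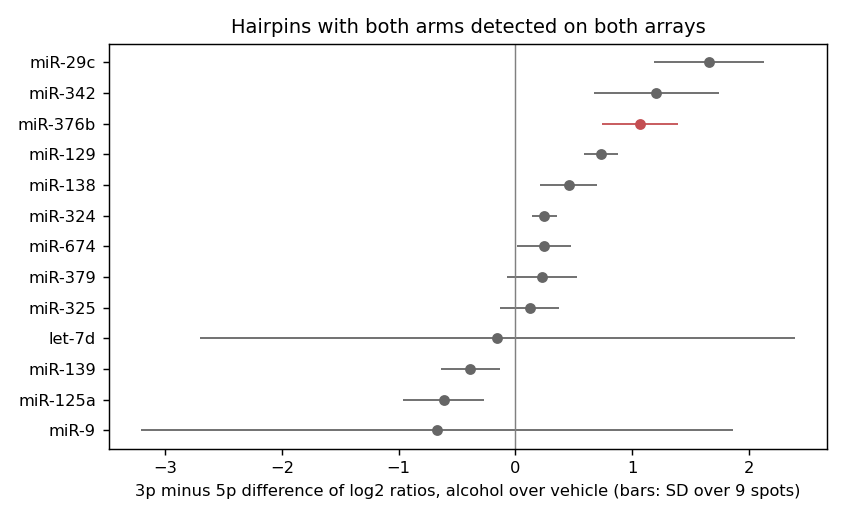
Difference of the log2 ratios of alcohol over vehicle between the 3p and the 5p arm of the 13 hairpins with both arms detected on both arrays, with the SD over 9 spots as bars. miR-376b (red), at 1.07, lies below miR-29c and miR-342.

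The paralogues of miR-376b-3p were dim, although they differ from it by few bases. The raw density of miR-376a ran from 242 to 265 over the vehicle spots, with a median of 254, and from 186 to 220 over the alcohol spots, with a median of 200. It was therefore lower on the alcohol array in raw density, but the background was lower there as well. Above the median of the dark probes, miR-376a had 11.9 units with vehicle and 56.3 with alcohol. It was brighter than 124 of the 125 dark probes with vehicle and than 125 with alcohol. Its normalized signals were 131 (vehicle) and 133.9 (alcohol). miR-376a was not detected on the vehicle array, and its alcohol signal did not exceed the lowest signal of a detected probe there, so no fold is given.

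miR-376c ran from 230 to 258 on the vehicle array, with a median of 245, and from 153 to 195 on the alcohol array, with a median of 167. Above the dark probes this left 1.45 units on the vehicle array, where 76 of the 125 dark probes were dimmer, and 23.0 on the alcohol array, where all 125 were dimmer. The 1 alcohol spot over the threshold kept miR-376c itself out of the dark probes, so the alcohol count is not independent of their choice. miR-376c was not detected on either array, so no fold is given for it either. The 5p strand of the miR-376a hairpin, miR-376a*, had 0 detected spots on both arrays and so was itself 1 of the dark probes. Its net density was -2.08 units with vehicle and -3.40 units with alcohol.

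These net densities are not normalized, and the alcohol array was the brighter of the arrays. By this measure miR-376b-3p had a density of 434 with vehicle and 1659 with alcohol. The net density of miR-376a was 2.73% of this with vehicle and 3.39% with alcohol. That of miR-376c was 0.334% and 1.39%. The SD among the dark probes was 4.36 units with vehicle and 6.62 with alcohol, so the vehicle share of miR-376c is within the spread of the background. Whether the miR-376a and miR-376c probes bound miR-376b-3p was not tested. After normalization neither paralogue had a settled direction. The ratio computed for miR-376a was above 0 in 10 of the 13 alternatives and below 0 in 3, and that of miR-376c was above 0 in 8 and below 0 in 5. Since neither was detected with vehicle, no size is given for the difference between miR-376b-3p and its paralogues.

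Over both arrays, the probes whose pair of normalized log2 signals lay closest to that of miR-376b-3p were miR-92a, at a distance of 0.12, and miR-598-3p, at 0.16. Their log2 ratios were 0.69 ± 0.36 and 0.58 ± 0.53 (SD over 9 spots), and both were above 0 in all 13 alternatives. Closest to miR-376b-5p were miR-15b, at 0.0995, and miR-652, at 0.13. Their log2 ratios were -0.35 ± 0.23 and -0.12 ± 0.11, and without normalization they were 0.73 and 0.96, above 0 like that of miR-376b-5p. miR-376a lay closest to miR-322* and miR-296*, and miR-376c to miR-412 and miR-24-1*, of which none was detected on the vehicle array. With 2 arrays such closeness means a like brightness and a like ratio and no more.

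The hairpins of the family lie within the miR-379/miR-410 cluster, a run of miRNA genes in the imprinted domain. The cluster list held 31 other probes, of which 24 were matched to RefSeq by sequence. Of the 31, 20 were detected on both arrays and 27 on at least 1, and 15 met the detection and signal filter. Among these 15, 3 were called higher and 4 lower on the alcohol array, and 8 lay within 1.3-fold. The background for such counts is the 26.4% and 20.8% given above over all probes that met the filter. The median log2 ratio of the 31 was 0.07, and that of all 349 probes was 0.0067. Both medians include dim probes. Over the probes that met the filter the median was 0.11 for the 15 of the list and 0.04 for all 125.

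After cyclic loess the probes of the cluster list did not all go in one direction. The 3 called higher and 4 called lower do not stand apart from the background, and the counts depended on the processing. With 5S rRNA scaling 15 were called higher and 0 lower, and without normalization 11 and 1. miR-376b-3p had a higher ratio than any of the 15 list probes that met the filter, after cyclic loess and in 11 of the 13 alternatives. It was below miR-154 with quantile normalization, at 0.61 against 0.64, and below miR-411 with cyclic loess on the probes detected on both arrays, at 0.62 against 0.64. The lead over miR-154 was small next to the SD over spots, at 0.77 ± 0.45 against 0.49 ± 0.26. Without normalization the ratios were 1.73 and 1.63, and in the first block that of miR-376b-3p was 0.31. The highest of the list were miR-154, at 0.49 ± 0.26, miR-543*, at 0.41 ± 0.24, and miR-411, at 0.40 ± 0.15 (SD over 9 spots). These were above 0 in all 13 alternatives. miR-411 met the signal filter through the alcohol array only, at 405 against 306 with vehicle. The lowest were miR-134, a miRNA known to restrict the size of dendritic spines, at -1.44 ± 0.10, miR-485, at -1.05 ± 0.11, and miR-382, which was the subject of the study's further experiments, at -0.61 ± 0.05. miR-134 was below 0 in all 13 alternatives. Under the scaling to 5S rRNA miR-485 turned to 0.22 and miR-382 to 0.18. miR-376b-5p lay inside the range of the list, with 15 probes from -1.44 to 0.49.

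**Figure D5:**
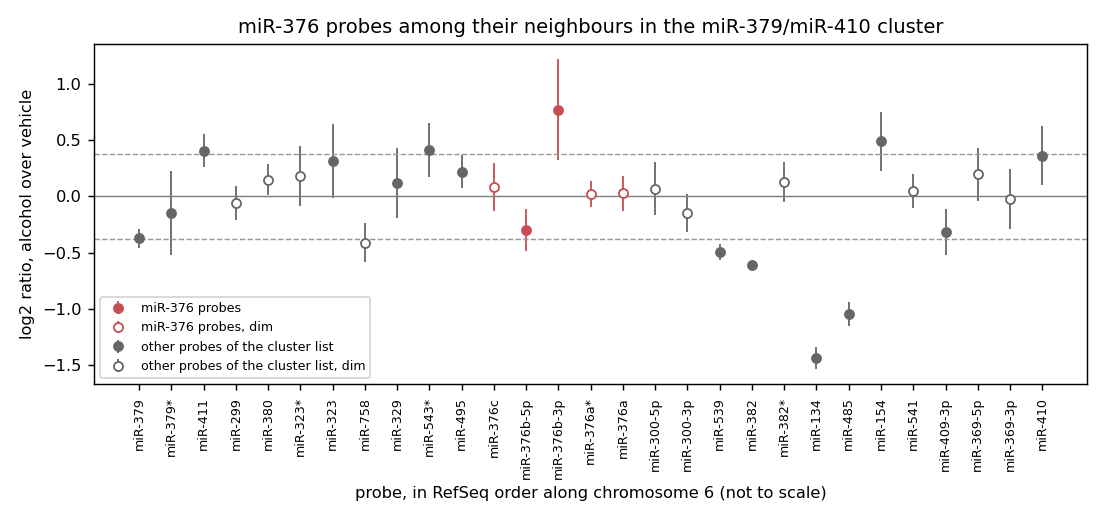
Log2 ratio of alcohol over vehicle, with the SD over 9 spots as bars, for the miR-376 probes (red) and the 24 other probes of the miR-379/miR-410 cluster that were matched to RefSeq, in their order along chromosome 6 (not to scale). Open symbols did not meet the detection and signal filter, dashed lines mark 1.3-fold, and miR-376b-3p, at 0.77, is the highest point while miR-134, at -1.44, is the lowest.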

How the data were processed

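Per the labels, small RNA was tailed, tagged and stained with Cy3 on LC Sciences rat arrays. The authors deposited the mean intensity of each spot (its pixel density, background not removed), together with a processed signal for every probe, for which the series text names a cyclic normalization; its tool and settings are not given in the sources used here. Here, limma 3.58.1 (R 4.3.3) applied normexp with an offset of 50 to the spot densities, on the foreground alone since the files hold no background column. The values were log2-transformed, averaged over the 9 spots and normalized with cyclic loess (span 0.7, 3 iterations) over 349 probes. Spots at the same place on both arrays gave the SD of a ratio. With 1 array per group no test was made, and precision is limited by this number of arrays. The background correction, the averaging over spots and the cyclic loess were also run on simulated data with known changes. The members, lists, detection rule and alternatives were chosen with earlier results of these data known. The text names the 4 members, miR-376a*, the 2 probes nearest each member, and the 3 called cluster probes with the largest ratio in each direction; further names were picked once their values had been seen. The cluster list was written by miRNA number. Sequences are from RefSeq (GRCr8). Python 3.11.15 did all other steps.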

Additional observations from a re-analysis of the deposited data

How the results depend on the processing

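With 1 array per group no setting separates treatment from array, a probe not above background has only a bound, and the cause of the shifts below was not tested. No paired analysis was possible because there is only 1 array of either treatment. The log2 ratio of miR-376b-3p, 0.77, was 1.73 without normalization and 2.03 with 5S rRNA scaling, and moved by less than the SD over spots in the other 11 alternatives. That of miR-376b-5p, -0.30, was 0.80 without normalization, 1.10 with 5S rRNA, -0.56 after subtraction of the mismatched controls and -0.68 in the authors' processed signal. The arm difference, 1.07, was 1.62 in the authors' signal and moved by less than its SD in the other 12. These 12 are not independent. The value was the same, 0.93, without normalization and under the scalings to the median, the 75th percentile and 5S rRNA, since a constant scaling cancels. The arm difference was 0.70 net of the median of the dark probes, an alternative added after the values were seen. For miR-376a and miR-376c, which did not reach detection with vehicle, the computed ratios are no measure of a change and are given only for their dependence on the scaling. As computed, miR-376a was 0.03, and 0.35 with 5S rRNA, -0.92 with the 75th percentile, -1.17 with median scaling and 0.21 in the authors' signal. miR-376c was 0.08 as computed, and 0.88 in the authors' signal, -0.25 without normalization, -1.21 with the 75th percentile and -1.46 with median scaling. The computed difference between miR-376b-3p and miR-376a, 0.74, which rests on the same dim probe, was 1.68 without normalization and under the scalings to the median, the 75th percentile and 5S rRNA.

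The median of the cluster list, 0.07, rose to 0.31 without normalization and 0.61 with 5S rRNA, and became -0.91 with median scaling and -0.66 with the 75th percentile. The median of all 349 probes was -0.22 without normalization, 0.085 with 5S rRNA, -1.43 with median scaling and -1.18 with the 75th percentile. The 3 cluster probes called higher became 15 with 5S rRNA, 11 without normalization and 5 with the 75th percentile. There was 1 with median scaling, 1 after subtraction of the mismatched controls and 1 in the authors' signal, and 0 with the median over spots or at 2-fold. The 4 called lower became 8 with median scaling, 2 at 2-fold, 1 without normalization and 0 with 5S rRNA.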
